A study of Homo sapiens with 6 samples.

Results

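Ephrins, Eph receptors, semaphorins and plexins were followed across 6 Affymetrix arrays of SAS, a human cell line established from an oral squamous cell carcinoma. The members were all probe sets whose single gene symbol in the platform annotation belongs to one of these 4 families, which gave 120 probe sets of 41091 with 1 symbol and 50 genes of 19775. They comprised 13 Eph receptor genes, 8 ephrin genes, 20 semaphorin genes and 9 plexin genes. All cells had first received an siRNA, were grown for 2 days and then spent 48 h without serum. The groups were siCYLD with DMSO (2 arrays), siCYLD with an ALK5 inhibitor (1 array), siCtrl with the ALK5 inhibitor (1 array) and siCtrl with DMSO (2 arrays). CYLD encodes a deubiquitinase that restrains NF-κB signalling, and ALK5 is the TGF-β type I receptor. Arrays with DMSO are called untreated. The sequence and number of the siRNAs and the name and dose of the inhibitor are not given in the sources used here. With no rescue among these arrays, effects of the siRNA on other targets cannot be told apart from loss of CYLD. Nothing says that the duplicates came from separate cultures, so p-values here rest on array-to-array spread that may be technical.

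Ephrins are cell-surface ligands. Ephrin-A proteins are held in the membrane by a lipid anchor and ephrin-B proteins span it, and both bind Eph receptor tyrosine kinases on neighbouring cells, with signals running into both cells. Semaphorins are secreted, lipid-anchored or membrane-spanning ligands, and plexins are their receptors, often together with neuropilin co-receptors. Both systems act on the cytoskeleton and on adhesion, were first described in axon guidance, and are also used by epithelial and carcinoma cells in cell sorting, boundary formation and migration.

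The values were MAS5 signals, 1 linear intensity per probe set and array, in which the arrays stood on a common trimmed mean. Array medians ran from 73.4, in the siCtrl inhibitor array, to 84.8. CYLD was lower with its siRNA in all 4 of its kept probe sets (adjusted p below 0.05, limma), at 19.6% to 58.6% of its level in siCtrl arrays. Title and source name contradict each other on 2 arrays, siCYLD replicate 1 and siCtrl replicate 2, each of which has the other siRNA in its source name. CYLD followed the titles, at 77.2 in siCYLD replicate 1 and 125 in replicate 2, against 485 in siCtrl replicate 1 and 549.9 in replicate 2 in the CYLD probe set with the largest fall. Titles set the groups, and results are also given without this pair. The squamous marker list had 6 of 9 genes tested, with summed signals of 35700 and 34810 in untreated siCYLD arrays, against 37970 and 38210 in untreated siCtrl arrays. With the inhibitor the sums were 39940 in siCYLD and 48850 in siCtrl. Most of each sum came from EPCAM and CDH1, at 20420 and 15160 in siCtrl replicate 1, while KRT14 and PKP1 read at most 147.7 and 85.7. DSG3 was the 1 gene of the list called in the knockdown and fell (-0.64, adjusted p = 0.00224). The ACTB 3'/5' ratio, a measure of RNA quality, was 2.26 to 2.48 in the 3 siCYLD arrays and 3.21 to 3.67 in the 3 siCtrl arrays. The same ratio for GAPDH overlapped between the siRNAs, at 1.80 to 1.97 in siCYLD arrays and 1.79 to 2.14 in siCtrl arrays. The siCtrl inhibitor array had the highest ACTB ratio of all, 3.67, but not the highest GAPDH ratio (1.87). A list of 9 proliferation genes fell with the knockdown in 9 of 9, with summed signals of 2137 and 1867 in untreated siCYLD arrays, against 6457 and 7317 in untreated siCtrl arrays. In a list of TGF-β targets 9 of 10 rose, with sums of 83120 and 85100 in siCYLD, against 19130 and 20860 in siCtrl. The fibroblast list, with 5 of 7 genes passing, summed to 1121 and 1053 in siCYLD, against 1407 and 1256 in siCtrl. That lower sum follows FBLN1, the 1 gene of the list that was called, at 249 and 212 in siCYLD, against 538 and 540.1 in siCtrl, while COL1A1 (0.27) and COL1A2 (1.05) were not called. The part of these measures in the differences below was not tested, and in bulk RNA fewer cells of a kind and less RNA per cell cannot be told apart.

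Knockdown of CYLD was accompanied by higher transcripts of several ligands and of a pair of plexins. SEMA7A, SEMA3C, EFNA1, EPHA10, PLXND1, EFNB3, PLXNA3, EFNB2 and EPHB4 rose, and SEMA6D and EFNA5 fell. Probe sets with a group mean above a signal of 79.3 in at least 1 group were kept, and each gene was represented by its brightest one. By this filter 36 of the 50 genes were tested, and 11 were called at an adjusted p below 0.05 (limma, over 12935 genes), where 21.3% of all genes were called. These were 9 higher (25% of the members tested, against 9.49% of all genes) and 2 lower (5.56%, against 11.8%). A called difference of at least 2-fold was seen for 2 members (5.56%, against 4.28%). The median log2 difference, untreated siCYLD minus untreated siCtrl, was 0.09 over the members tested and -0.04 over all genes. The 2 untreated siCYLD arrays did not overlap with the 2 untreated siCtrl arrays for 22 members (61.1%), close to the 60.9% of all genes. Of these, siCYLD was higher for 15 (41.7%, against 26.8%) and lower for 7 (19.4%, against 34.1%). Without both arrays with conflicting labels, an additive model of siRNA and inhibitor called 5 members, EFNA1, EFNB3, PLXND1 and SEMA3C higher and SEMA6D lower. There the inhibitor pair is 1 of the 2 pairs compared.

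**Figure D1:**
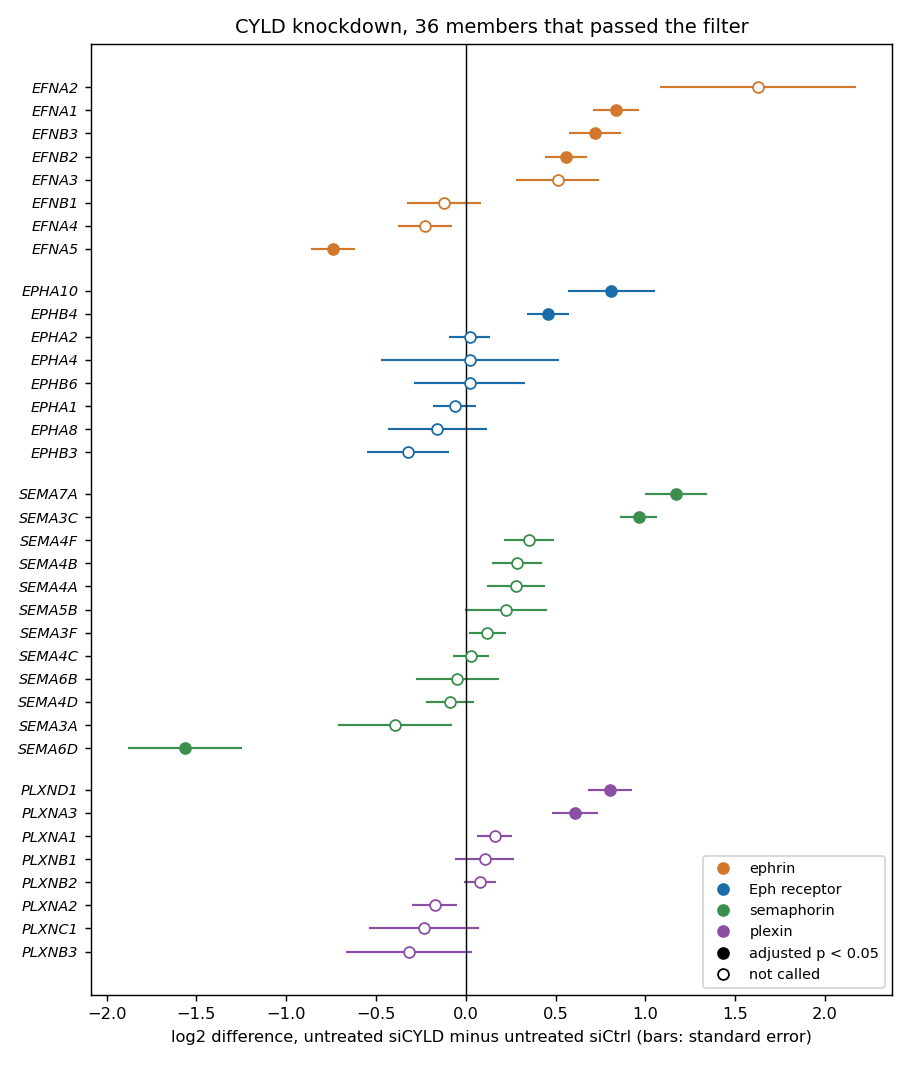
Log2 differences (x axis, untreated siCYLD minus untreated siCtrl, 2 arrays each) of the 36 members that passed the filter, grouped by family, with standard errors as bars and filled points for genes called at an adjusted p below 0.05. Called values lie between -1.57 (SEMA6D) and 1.17 (SEMA7A), and the bar of EFNA2, at 1.63 and not called, is the widest.

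All 8 ephrins passed the filter, and 3 rose and 1 fell with the knockdown. EFNA1, a lipid-anchored ligand of EphA receptors such as EPHA2, read 2002 and 2513 in untreated siCYLD arrays, against 1305 and 1198 in untreated siCtrl arrays. The groups did not overlap, and the log2 difference was 0.84 ± 0.13 (standard error, adjusted p = 0.0004, limma), or 1.78-fold. EFNB3, a membrane-spanning ligand, read 692 and 785 in siCYLD against 414 and 469 in siCtrl (0.72 ± 0.14, adjusted p = 0.00316). EFNB2, the ligand of EPHB4, read 1578 and 1814 in siCYLD against 1191 and 1099 in siCtrl (0.56 ± 0.12, adjusted p = 0.00464). EFNA5, another EphA ligand, went the other way and fell to 488 and 503 in siCYLD, against 815 and 861 in siCtrl (-0.74 ± 0.12, adjusted p = 0.000932). In all 4 genes the untreated groups stood apart.

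The remaining 4 ephrins were not called. EFNA2 had the largest difference of the family, 1.63 ± 0.55, with signals of 91.6 and 75.8 in siCYLD against 3.01 and 38.4 in siCtrl (adjusted p = 0.0505). Both siCtrl signals lay below the filter level and far from each other, and 1 siCYLD signal lay below it too. EFNA3 read 252 and 322 in siCYLD against 153 and 248 in siCtrl, a difference of 0.51 with a 95% interval of 0.01 to 1.01 (adjusted p = 0.136). EFNA4 and EFNB1 differed by -0.23 and -0.12.

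Of 13 Eph receptor genes, 8 passed the filter, 2 rose and 0 fell. EPHB4, the receptor of EFNB2, read 2718 and 2267 in untreated siCYLD arrays, against 1724 and 1885 in untreated siCtrl arrays (0.46 ± 0.12, adjusted p = 0.013). The groups did not overlap, but without siCYLD replicate 1 its call was lost (adjusted p = 0.127). EPHA10, a receptor that lacks kinase activity, read 248 and 268 in siCYLD against 174 and 113 in siCtrl (0.81 ± 0.24, adjusted p = 0.0291). Its call was lost without siCtrl replicate 2 (adjusted p = 0.194) and without siCYLD replicate 2 (adjusted p = 0.0817).

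EPHA2, the EphA receptor best known from epithelial and carcinoma cells, read 2134 and 2457 in siCYLD against 2391 and 2126 in siCtrl. Its groups overlapped, and the difference was 0.02 with a 95% interval of -0.22 to 0.27. EPHA1 differed by -0.06 (interval -0.32 to 0.20), and the kinase-defective EPHB6 by 0.02 (interval -0.65 to 0.69). EPHB3, EPHA8 and EPHA4 differed by -0.32, -0.16 and 0.02 and were not called. EPHA3, EPHA5, EPHA6, EPHA7 and EPHB1 had no kept probe set.

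Of 20 semaphorin genes, 12 passed the filter, 2 rose and 1 fell. SEMA3C, a secreted semaphorin that acts through neuropilins and PLXND1, read 5027 and 4667 in untreated siCYLD arrays, against 2590 and 2370 in untreated siCtrl arrays. The groups were far apart relative to the duplicates, at 0.96 ± 0.10 or 1.95-fold (adjusted p = 2.34e-05, limma). SEMA7A, a lipid-anchored semaphorin that binds PLXNC1 and β1 integrin, read 486 and 500 in siCYLD against 237 and 186 in siCtrl (1.17 ± 0.17, adjusted p = 0.000302). SEMA6D, a membrane-spanning semaphorin, fell to 40.2 and 32.0 in siCYLD, against 124 and 153 in siCtrl (-1.57 ± 0.32, adjusted p = 0.0034). The siCYLD signals of SEMA6D lay below the filter level, where the size of a log2 difference depends on the offset, and it ran from -1.91 to -1.01 over the alternatives. The fall rests on the single kept SEMA6D probe set. The others were too dim to be kept and showed no such fall (-0.13, 0.44, -0.17 and 0.13).

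The other 9 semaphorins tested were not called. SEMA4F read 629 and 623 in siCYLD against 519 and 456 in siCtrl (0.35, 95% interval 0.05 to 0.66, adjusted p = 0.0939). SEMA4B, SEMA4A and SEMA5B differed by 0.29, 0.28 and 0.23, and SEMA3F by 0.12. SEMA4C differed by 0.03 (interval -0.19 to 0.24) and SEMA4D, the ligand of PLXNB1, by -0.09 (interval -0.38 to 0.20). SEMA6B and SEMA3A differed by -0.05 and -0.39. SEMA3B, SEMA3D, SEMA3E, SEMA3G, SEMA4G, SEMA5A, SEMA6A and SEMA6C had no kept probe set.

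Of 9 plexin genes, 8 passed the filter, 2 rose and 0 fell. PLXND1, a receptor for SEMA3E and, with neuropilins, for SEMA3C, read 1912 and 1789 in untreated siCYLD arrays, against 1145 and 968 in untreated siCtrl arrays (0.80 ± 0.12, adjusted p = 0.000439). PLXNA3, a partner of neuropilins in SEMA3F signalling, read 889 and 897 in siCYLD against 599.7 and 561 in siCtrl (0.61 ± 0.13, adjusted p = 0.00479). Both groups stood apart in each gene. PLXNB2, a receptor of SEMA4C, differed by 0.08 (95% interval -0.12 to 0.28) and PLXNA1, a receptor of SEMA6D, by 0.16 (interval -0.05 to 0.37). PLXNB1, PLXNA2, PLXNC1 and PLXNB3 differed by 0.11, -0.17, -0.23 and -0.32 and were not called. PLXNA4 had no kept probe set. The 14 genes with no kept probe set were covered by 36 probe sets with signals of 0.839 to 72.7 (median 12.9), and the tables hold no detection call that would say which of these lie above background.

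**Figure D2:**
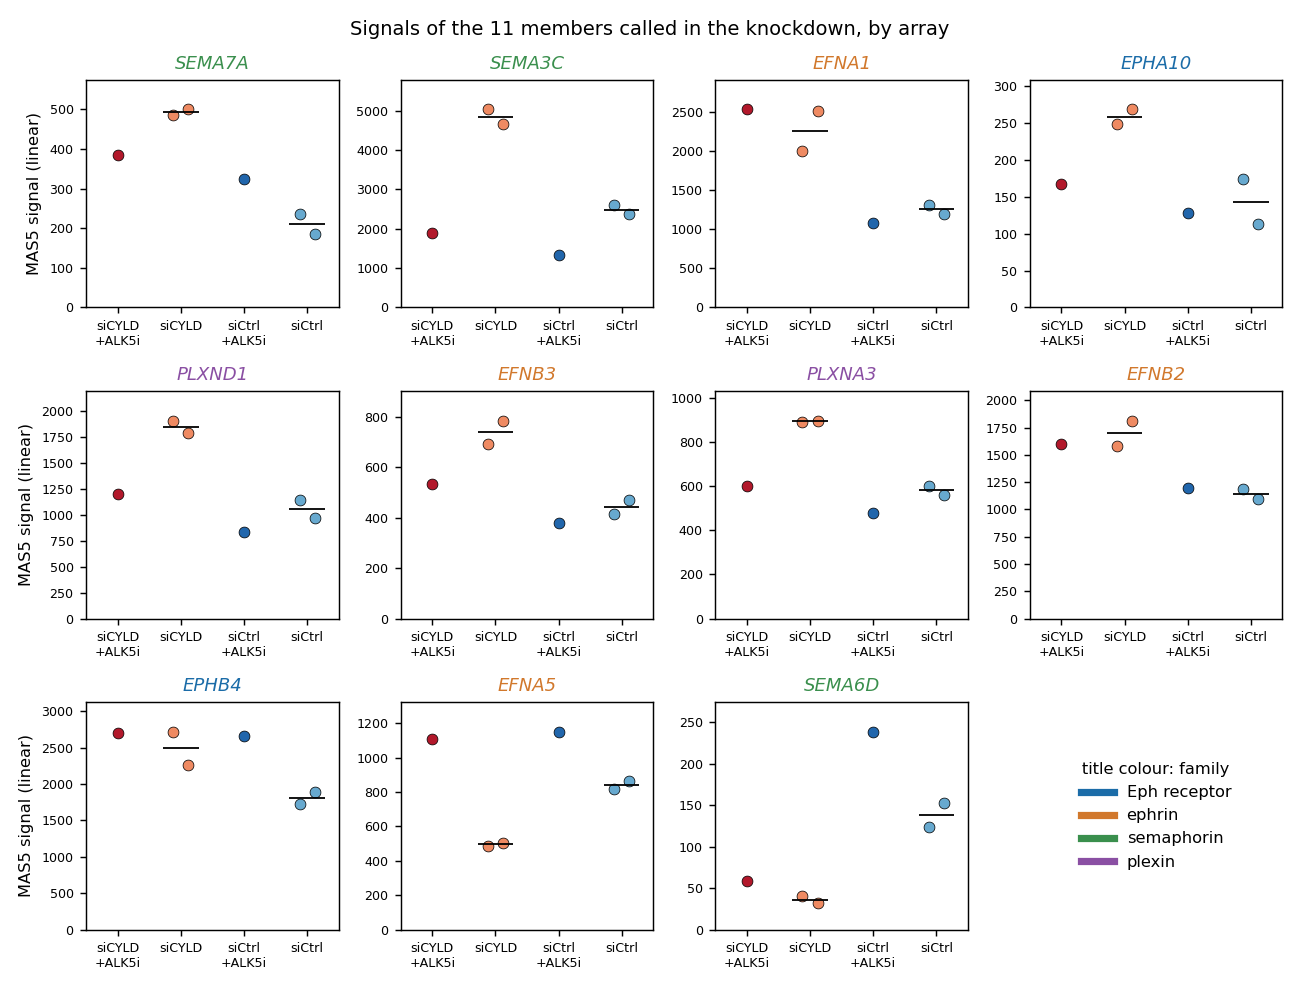
MAS5 signals (y axes, linear, starting at 0) of the 11 members called in the knockdown on each of the 6 arrays, with 1 point per array and a line at the mean of duplicates. Untreated siCYLD points lie above both untreated siCtrl points in 9 panels and below them for EFNA5 and SEMA6D. SEMA3C with the inhibitor lies below every untreated array, at 1890 in siCYLD cells and 1330 in siCtrl cells.

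The probe sets of a gene did not always move alike. Of the 120 member probe sets, 60 were kept, and 16 of them (26.7%) were called in the knockdown when all 24537 kept probe sets were fitted together, where 16.8% were called. Of 18 members with several kept probe sets, 13 had one sign throughout. Both kept probe sets of SEMA3C rose (0.96 and 0.66), as did both of PLXNA3 (0.61 and 0.84). PLXND1 had calls at 0.80 and 0.85 and a dim probe set at -0.01 that was not called, and EFNA5 had calls at -0.74 and -0.89 and one more at -0.32 (adjusted p = 0.303). For SEMA7A and EFNB3 the second probe set was not called, at 0.33 and 0.26, and the means of both, 0.75 and 0.49, were not called either (adjusted p = 0.1 and 0.0642). The second probe sets of EFNB2 (0.51, adjusted p = 0.0532) and EPHB4 (0.44, adjusted p = 0.0779) were not called, though both genes kept their calls for the mean of probe sets. SEMA3F had the widest split, with 0.12, 1.01 (adjusted p = 0.0295) and -0.42 (adjusted p = 0.197). Counting a member only where the majority of its kept probe sets were called left 7 members, 5 higher and 2 lower.

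**Figure D3:**
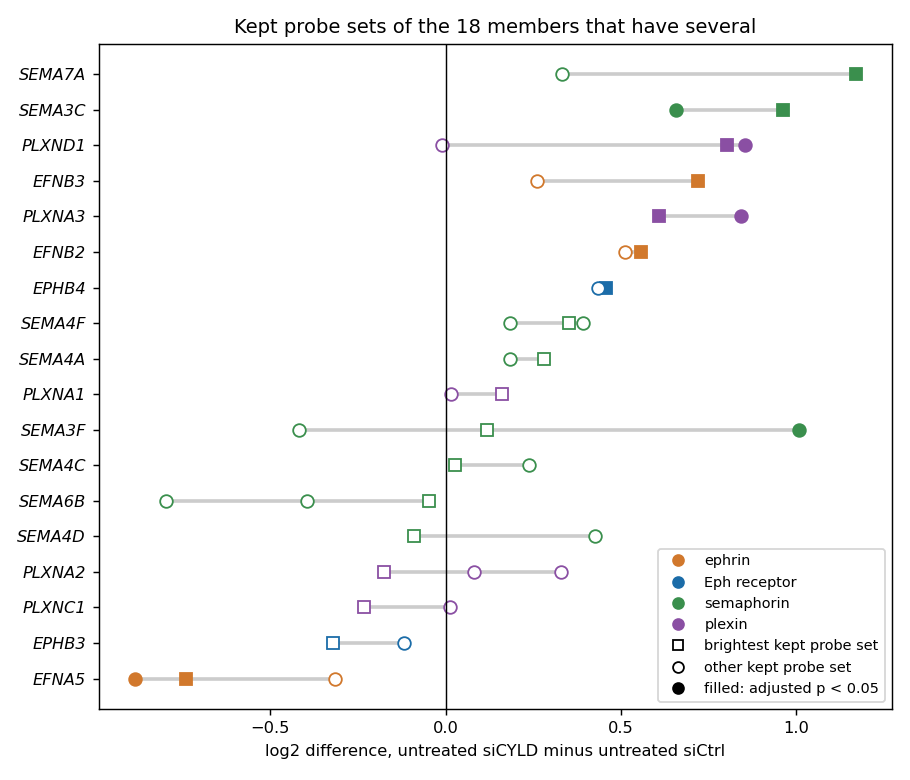
Knockdown log2 differences (x axis) of every kept probe set of the 18 members that have several, with squares for the brightest one, circles for the others, and filled symbols for an adjusted p below 0.05 over all kept probe sets. SEMA3F spans -0.42 to 1.01, and EPHB4 and EFNB2 have probe sets close to each other, of which only the brightest is filled.

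The ALK5 inhibitor lowered SEMA3C and 4 other members and raised EFNA5. The differences are inhibitor minus DMSO across both siRNAs, from 2 arrays against 4. SEMA3C read 1890 with the inhibitor, against 5027 and 4667 with DMSO, in siCYLD cells. In siCtrl cells it read 1330 with the inhibitor, against 2590 and 2370 with DMSO. Both inhibitor signals lay below all 4 DMSO signals, and the difference was -1.12 ± 0.12 (adjusted p = 0.00023, limma).

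EFNA5 read 1105 with the inhibitor in siCYLD cells, against 488 and 503 with DMSO, and 1150 in siCtrl cells, against 815 and 861 with DMSO (0.79 ± 0.15, adjusted p = 0.00535). Both inhibitor signals were above all 4 DMSO signals. This probe set is of the _s_at kind, and the other kept ones gave 0.43 and 0.48, neither called (adjusted p = 0.0871 for EFNA5 without such probe sets). PLXND1 read 1199 with the inhibitor in siCYLD cells, against 1912 and 1789, and 834 in siCtrl cells, against 1145 and 968 (-0.48 ± 0.12, adjusted p = 0.0196). PLXNA3 read 600.5 with the inhibitor in siCYLD cells, against 889 and 897, and 478 in siCtrl cells, against 599.7 and 561 (-0.42 ± 0.12, adjusted p = 0.0372). Within each siRNA, the inhibitor signals of both plexins lay below the DMSO signals, though across siRNAs they overlapped. The dim PLXND1 probe set (-0.07) and the second PLXNA3 probe set (-0.10) were not called, and for the mean of probe sets both genes lost their calls (-0.35, adjusted p = 0.11, and -0.26, adjusted p = 0.165).

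SEMA3F, which signals through NRP2, read 1642 with the inhibitor in siCYLD cells, against 2859 and 2658, and 2208 in siCtrl cells, against 2560 and 2513 (-0.47 ± 0.13, adjusted p = 0.0245). Its other 2 kept probe sets differed by less than 0.01 and by -0.23 and were not called, and the mean of the 3 was -0.23 (adjusted p = 0.211). PLXNB2 read 6110 with the inhibitor in siCYLD cells, against 7404 and 8133, and 5561 in siCtrl cells, against 7464 and 7220 (-0.37 ± 0.09, adjusted p = 0.0128). In both genes all inhibitor signals were below all DMSO signals. In all, 6 of 36 members were called (16.7%, against 20% of all genes), 1 higher (2.78%, against 11.2%) and 5 lower (13.9%, against 8.82%). The member count is thus near the background. It was 3 without siCYLD replicate 1 and 3 without siCYLD replicate 2, and 2 (SEMA3C and EFNA5) without both arrays with conflicting labels. The calls of PLXND1, PLXNA3 and SEMA3F were each lost without siCYLD replicate 1, siCYLD replicate 2, siCtrl replicate 1 or the siCYLD inhibitor array. Without that inhibitor array, where the fit measures siCtrl cells alone, their differences were -0.33, -0.27 and -0.20, and EFNA5 lost its call too (0.45, adjusted p = 0.0926).

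The largest differences not called across both siRNAs were SEMA3A at 0.90 (adjusted p = 0.0681), SEMA6D at 0.62 (adjusted p = 0.133) and EPHA4 at 0.58 (adjusted p = 0.406). PLXNA1 differed by 0.29 (adjusted p = 0.0502). EFNA1, EFNB2 and EPHA2 differed by -0.02, -0.01 and -0.09, with 95% intervals of -0.30 to 0.27, -0.26 to 0.23 and -0.34 to 0.17. Several marker lists moved with the inhibitor as well. In the squamous list KRT5 was the 1 called gene and rose (2.98, adjusted p = 5.28e-06). It read 5595 and 12530 with the inhibitor, against 900.5 to 1245 without it. The summed endothelial signal over 6 genes was 933.5 and 1010 with it, against 343 to 440 without it, and 3 of the 6 passed the filter. CDH5 rose with the inhibitor (3.30, adjusted p = 0.000576), as did VWF (1.54, adjusted p = 0.0165), which read 168.6 and 168.7 with it, against 25.0 to 71.4 without it. PECAM1 differed by 0.01 and was not called, and TEK, CLDN5 and ERG did not pass the filter. The fibroblast list summed to 1488 and 1723 with the inhibitor, against 1053 to 1407 without it, and FBLN1 was its 1 called gene (1.10). Of the proliferation genes 7 of 9 rose with the inhibitor and 0 fell, and of the TGF-β targets 7 of 10 fell and 1 rose. The part of these lists in the ephrin and semaphorin differences was not tested. The leukocyte and neuronal lists had 2 of 6 and 1 of 6 genes passing.

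Within single siRNAs, each comparison sets 1 inhibitor array against 2, and the lone array is assumed to vary as the duplicates did. In siCYLD cells 7 members were called (19.4%, against 22.4% of all genes), 2 higher (5.56%, against 12.2%) and 5 lower (13.9%, against 10.2%). These were SEMA3C (-1.35), SEMA3F (-0.74), PLXND1 (-0.62), PLXNA3 (-0.56) and PLXNB2 (-0.34), with SEMA3A (1.43) and EFNA5 (1.13) higher. SEMA3A, a secreted ligand of NRP1, read 190.5 with the inhibitor, against 48.7 and 74.3 with DMSO, both below the filter level. The size of the SEMA3A difference therefore depends on the offset. With no filter its call was lost, as were those of PLXNA3 and PLXNB2. For the mean of probe sets SEMA3F (-0.28), PLXND1 (-0.30), PLXNA3 (-0.32) and PLXNB2 (-0.34) were not called in siCYLD cells. Without siCYLD replicate 2 the calls of PLXNB2 (adjusted p = 0.218) and PLXNA3 (adjusted p = 0.0563) were lost.

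In siCtrl cells 6 members were called (16.7%, against 9.36% of all genes), 1 higher (2.78%, against 5.02%) and 5 lower (13.9%, against 4.34%). SEMA3C (-0.89) and PLXNB2 (-0.40) were again lower. The PLXNB2 call was again lost for the mean of probe sets. PLXNB1, the receptor of SEMA4D, fell to 177 with the inhibitor, against 361 and 340 with DMSO (-0.92 ± 0.20, adjusted p = 0.0122). EPHA8 read 53.7, below the filter level, against 122 and 181 (-1.24 ± 0.34, adjusted p = 0.0366), and SEMA6B 86.0 against 192 and 177 (-0.98 ± 0.28, adjusted p = 0.0459). EPHB4 was the member that rose, at 2660 against 1724 and 1885 (0.56 ± 0.14, adjusted p = 0.027). Its other kept probe set differed by 0.14 (adjusted p = 0.745), and the mean of both was 0.35 (adjusted p = 0.137). The count was 3 without siCtrl replicate 1, where EPHB4, PLXNB2 and SEMA6B lost their calls. Without siCtrl replicate 2 EPHA8 (adjusted p = 0.114) and SEMA6B (adjusted p = 0.0585) lost theirs. SEMA6B was represented by a probe set of the _x_at kind, whose probes may match other transcripts, and lost its call when such probe sets were left out (adjusted p = 0.567).

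**Figure D4:**
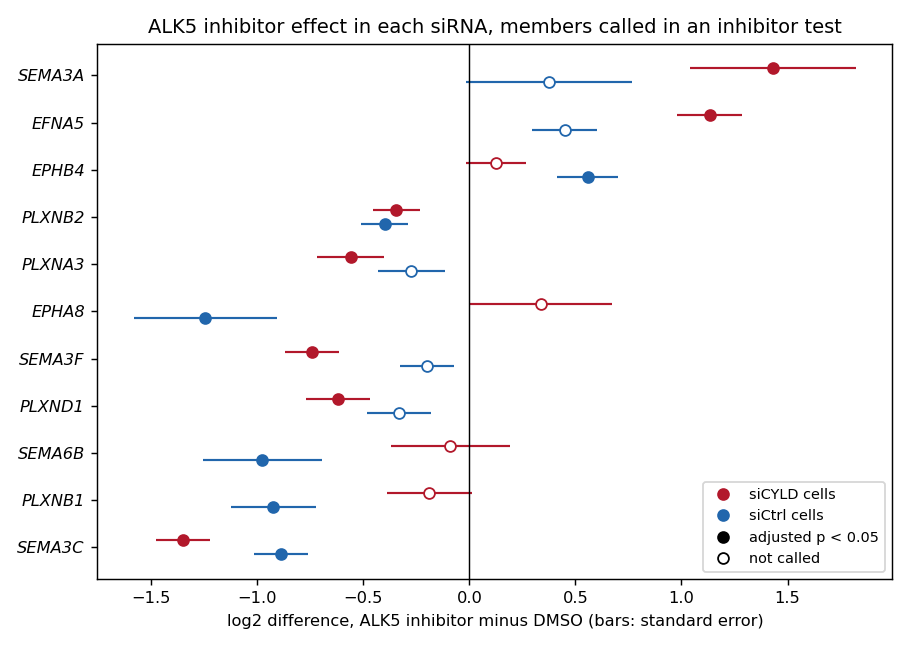
Log2 differences (x axis, inhibitor minus DMSO, 1 array against 2) in siCYLD cells and in siCtrl cells for the 11 members called in an inhibitor test, with standard errors as bars and filled points for an adjusted p below 0.05. SEMA3C and PLXNB2 are filled in both siRNAs, and EPHA8 stands at 0.34 in siCYLD cells and -1.24 in siCtrl cells.

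For no member was the inhibitor effect shown to differ between the siRNAs. The interaction, the inhibitor effect in siCYLD cells minus that in siCtrl cells, called 0 of 36 members (limma, where 1.67% of all genes were called, 0.982% higher and 0.688% lower), and 9 had an unadjusted p below 0.05 (25%, against 13.7% of all genes). The smallest adjusted p was 0.142, for EPHA8 (1.58 ± 0.48). SEMA7A (-0.93 ± 0.30), EFNA5 (0.68 ± 0.22), SEMA3F (-0.54 ± 0.18) and EFNB1 (1.06 ± 0.36) had adjusted p-values of 0.165, 0.16, 0.17 and 0.181. The call of PLXNB1 in siCtrl cells but not in siCYLD cells is therefore not a shown difference (0.73 ± 0.28, adjusted p = 0.255).

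Under the inhibitor there was 1 array per siRNA and no test. EFNA1 read 2529 in the siCYLD array and 1084 in the siCtrl array, a log2 difference of 1.21, and was the only member called in the untreated comparison with a rise of at least 2-fold here. SEMA6D read 58.7 and 238 in the same order (-1.77). EPHA8 and EPHA4 differed by 1.42 and 1.07, each with its siCtrl signal below the filter level. In all, 4 members differed at least 2-fold (11.1%, against 6.73% of all genes), 3 higher in siCYLD (8.33%, against 3.91%) and 1 lower (2.78%, against 2.81%). SEMA3C (0.50), PLXND1 (0.52), EFNB3 (0.47), EFNB2 (0.41), EPHA10 (0.34), PLXNA3 (0.32) and SEMA7A (0.24) had the sign of the untreated comparison, EPHB4 (0.03) lay near 0, and EFNA5 (-0.06) was close to equal at 1105 in siCYLD and 1150 in siCtrl.

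SEMA3C, PLXND1, PLXNA3 and EFNA5 were called both for the knockdown and for the inhibitor across both siRNAs, each with opposite signs in the 2 comparisons. The comparisons share the untreated arrays, so a high or low untreated array moves both. The promoters of these 4 genes are shown because the genes moved in both comparisons, SEMA3C and PLXND1 as a ligand and its receptor. The 250 bases before each annotated start were taken from RefSeq (GRCh38.p14), 5′ to 3′ on the gene's strand. SEMA3C has 2 listed starts, with windows at chr7:80922390-80922639 and chr7:80919052-80919301 on the minus strand. PLXND1 lies at chr3:129606677-129606926 (minus), PLXNA3 at chrX:154458031-154458280 (plus) and EFNA5 at chr5:107670938-107671187 (minus). Capitals mark the SMAD box CAGAC, to which SMAD proteins of the TGF-β pathway can bind, on either strand.
SEMA3C start 1: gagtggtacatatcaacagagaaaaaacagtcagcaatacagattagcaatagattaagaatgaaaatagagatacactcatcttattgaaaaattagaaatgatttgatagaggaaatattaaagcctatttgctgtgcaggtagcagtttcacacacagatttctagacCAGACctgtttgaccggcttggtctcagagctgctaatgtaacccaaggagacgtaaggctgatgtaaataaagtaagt
SEMA3C start 2: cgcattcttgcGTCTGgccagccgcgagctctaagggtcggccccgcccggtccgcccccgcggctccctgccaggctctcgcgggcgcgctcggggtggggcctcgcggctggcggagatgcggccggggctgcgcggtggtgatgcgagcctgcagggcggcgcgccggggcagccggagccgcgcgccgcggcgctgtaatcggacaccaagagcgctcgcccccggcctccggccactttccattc
PLXND1: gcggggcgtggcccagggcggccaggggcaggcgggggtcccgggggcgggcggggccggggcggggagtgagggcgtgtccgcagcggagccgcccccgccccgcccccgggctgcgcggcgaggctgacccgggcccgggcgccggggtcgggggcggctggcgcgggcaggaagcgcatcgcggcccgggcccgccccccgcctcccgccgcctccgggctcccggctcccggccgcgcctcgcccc
PLXNA3: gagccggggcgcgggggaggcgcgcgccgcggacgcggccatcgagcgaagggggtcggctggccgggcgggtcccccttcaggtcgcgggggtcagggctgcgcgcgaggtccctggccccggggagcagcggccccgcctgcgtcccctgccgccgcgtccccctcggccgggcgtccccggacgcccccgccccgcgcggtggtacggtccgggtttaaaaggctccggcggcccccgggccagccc
EFNA5: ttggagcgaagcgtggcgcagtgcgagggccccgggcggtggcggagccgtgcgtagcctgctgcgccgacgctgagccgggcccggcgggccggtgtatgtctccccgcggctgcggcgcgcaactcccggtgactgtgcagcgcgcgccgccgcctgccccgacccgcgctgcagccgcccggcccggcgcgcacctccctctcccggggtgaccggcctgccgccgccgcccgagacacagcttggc

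Each SEMA3C window held 1 SMAD box, at position -79 in the first and -239 in the second, and the other 3 windows held 0. Over all 35116 listed promoter windows of this length, 38% held at least 1. The AP-1 site TGANTCA and the NF-κB consensus, also searched on both strands, had 0 matches in the 5 windows and occurred in 6.57% and 9.96% of all windows. The GC box GGGCGG, found in 42.6% of all windows, occurred 9 times in PLXND1, 3 times in EFNA5, 2 times in PLXNA3, 3 times in the second SEMA3C window and 0 times in the first. The share of G and C was 36.4% in the first SEMA3C window and 77.6% to 88.8% in the other 4. These matches describe the letters in the windows and show no binding.

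Of 11 co-receptors and signalling partners tested, 4 rose and 0 fell (of all genes 9.49% rose and 11.8% fell), with a median of 0.05. L1CAM, an adhesion molecule that joins neuropilin in SEMA3A reception, read 3685 and 3631 in untreated siCYLD arrays, against 576 and 606 in untreated siCtrl arrays (2.60 ± 0.11, adjusted p = 4.74e-09). NRP1, the co-receptor of SEMA3A and SEMA3C, read 1339 and 1257 in siCYLD against 599 and 635 in siCtrl (1.05 ± 0.12, adjusted p = 5.29e-05). MST1R, a kinase related to MET, and ITGB1, the β1 integrin that SEMA7A binds, rose by 0.42 and 0.31. MST1R lost its call without siCYLD replicate 1, siCYLD replicate 2 or siCtrl replicate 2 (adjusted p of 0.0547 to 0.1), and ITGB1 without siCYLD replicate 1 or siCtrl replicate 1 (0.194 and 0.108). The inhibitor raised L1CAM (0.57) and the plexin-B partner MET (0.55) and lowered ERBB2 (-0.39), 3 of 11 called, where 20% of all genes were called. The other kept ERBB2 probe set differed by 0.16 (adjusted p = 0.799). The other kept MET probe sets differed by 0.33, 0.39 and 0.46, none called (adjusted p of 0.0898 to 0.171), though the MET call held for the mean of probe sets. Without the siCYLD inhibitor array MET (0.29, adjusted p = 0.117) and ERBB2 (-0.20, adjusted p = 0.406) lost their calls. ERBB2 also lost its call without siCYLD replicate 1, siCYLD replicate 2 or siCtrl replicate 1.

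Among effectors inside the cell, most calls in the knockdown were higher. Of 32 Eph and ephrin effectors tested, 9 rose and 1 fell with the knockdown (median 0.10), where 21.3% of all genes were called. The largest were NEDD9, a docking protein (1.29), VAV2, an exchange factor that Eph receptors use for Rac (1.17), GRB10 (0.54) and SRC (0.50). SRC lost its call without siCtrl replicate 2 (adjusted p = 0.366) and without siCYLD replicate 1 (adjusted p = 0.0588), and the mean of its 3 kept probe sets was not called (0.34, adjusted p = 0.451). The rise of GRB10 rests on 1 probe set: the other 3 kept ones lay below 0, at -0.27, -0.05 and -0.04, none called, and their mean with it was 0.04 (adjusted p = 0.806). For NEDD9 the other 3 kept probe sets differed by 1.14, 0.71 and 0.08, none called, and the mean was 0.80 (adjusted p = 0.0765). With the inhibitor 0 rose and 2 fell, where 20% of all genes were called. These were ABL2 (-0.75) and CBL (-0.71), the ubiquitin ligase that acts on Eph receptors.

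Of 23 plexin effectors tested, 5 rose and 1 fell with the knockdown (median 0.17), where 21.3% of all genes were called. CDK5, a kinase in semaphorin signalling, read 108 and 139 in siCYLD against 12.3 and 19.0 in siCtrl (2.14 ± 0.36, adjusted p = 0.000931), the siCtrl signals being below the filter level. The actin-oxidising enzyme gene MICAL1 rose by 1.55, FARP1 by 1.08 and RRAS by 0.91. FARP1 had 2 called probe sets of 4, and without those ending in _x_at or _s_at it was represented by one at 0.45 (adjusted p = 0.111). With the inhibitor 4 rose and 6 fell, where 20% of all genes were called. DPYSL2, which encodes the semaphorin mediator CRMP2, and DPYSL5 rose by 1.03 and 0.88, and the kinase gene FER fell by 0.86. The other kept DPYSL5 probe set differed by 0.44 (adjusted p = 0.27), and the mean of both was 0.66 (adjusted p = 0.0516). DPYSL5 lost its call without siCYLD replicate 1 or either inhibitor array (adjusted p of 0.0504 to 0.145). CDK5 (1.18) was called at an adjusted p of 0.0472, and that call was lost without any 1 of the 4 untreated arrays or without the siCtrl inhibitor array (adjusted p of 0.0623 to 0.494).

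In the other guidance systems (netrins, Slits and RGM proteins), 1 of 16 genes tested rose and 3 fell with the knockdown (median -0.23), where 21.3% of all genes were called. RGMB rose by 0.71, and the netrin gene NTN4, the Slit-Robo GTPase-activating gene SRGAP1 and the netrin receptor gene UNC5B fell by 0.57, 0.55 and 0.50. The other kept RGMB probe sets differed by 1.18 (adjusted p = 0.0432), 0.42 (adjusted p = 0.305) and 0.05 (adjusted p = 0.853). The RGMB call held for the mean of probe sets. UNC5B lost its call without siCtrl replicate 1 (adjusted p = 0.127). With the inhibitor 0 rose and 2 fell (20% of all genes were called), UNC5B (-0.56) and the netrin and RGM receptor gene NEO1 (-0.43). The other kept NEO1 probe set differed by 0.07 (adjusted p = 0.799). NEO1 lost its call without any 1 of the 4 untreated arrays or without the siCtrl inhibitor array (adjusted p of 0.0569 to 0.242).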

How the data were processed

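Per the submitters' processing notes the deposited values are MAS5 signals, 1 linear intensity per probe set and array. The MAS5 version, the genome build and detection calls are not given in the sources used here. Each deposited column had a 2% trimmed mean of 500.1. Of 54675 probe sets, 62 were controls, 41091 had 1 symbol, 1801 several and 11721 none; 1 probe set with several symbols included a member (SEMA3B) and was not used. All 50 member symbols matched the RefSeq gene list.

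Signals were analysed as log2(signal + 16.06), the offset being their 20th percentile, with no further scaling. Fold changes are on this scale and understate changes of dim genes. Probe sets whose highest group mean exceeded the median of all log2 values (24537) were kept, and the brightest stood for each of 12935 genes. limma 3.58.1 in R 4.3.3 (with the package data.table, version 1.17.8) was fitted over all genes with an intensity trend and two-sided Benjamini-Hochberg adjustment. A model of 4 group means (2 residual and 10.9 prior degrees of freedom) gave the knockdown, the inhibitor within each siRNA and the interaction, and an additive model (3 and 7.98) the inhibitor across both. On simulated arrays of 12935 genes, 72% of 2-fold and 98% of 4-fold knockdown differences were recovered. Figures used matplotlib 3.10.9 in Python 3.11.15.

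The members, the lists and the tests were chosen with earlier results of these data known. Named were all members and, from each pathway list, the called genes with the 4 largest differences. Alternatives covered the offset, filter, probe sets, scaling, moderation, labels, block and each array left out.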

Additional observations from a re-analysis of the deposited data

Results flagged for a closer look

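NRP1, the neuropilin co-receptor of SEMA3A and SEMA3C, stood out because the inhibitor effect differed between the siRNAs (interaction 0.98 ± 0.22, adjusted p = 0.0383, limma). In siCYLD cells it read 1370 with the inhibitor, against 1339 and 1257 with DMSO. In siCtrl cells it read 322 with the inhibitor, against 599 and 635 with DMSO. In siCYLD cells the inhibitor difference was 0.08, and in siCtrl cells -0.90, each with 1 inhibitor array, whose own spread is unknown. The interaction was called without each of the 4 untreated arrays in turn (0.94 to 1.03), but not when all probe sets were kept (adjusted p = 0.15), nor with moderation that ignored intensity (adjusted p = 0.222), nor for the mean of its kept probe sets (0.57, adjusted p = 0.604). When all kept probe sets were fitted together, the bright NRP1 probe set, which gave the interaction of 0.98, was not called. The other kept NRP1 probe set, a dim one, had an interaction of 0.16 and was not called either.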

How the results depend on the processing

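No member call was reversed under any alternative run. The count of members called for the knockdown, 11 as reported, was 8 to 13 under the changed offset, filter, representation by gene, scaling, moderation, untreated-only, additive and block fits. It was 7 by the majority of probe sets, 5 in the additive model without both arrays with conflicting labels, and 0 with untreated arrays grouped by source name, a grouping that places 1 array of each title in each group. Apart from the grouping by source name, where no gene was called, EFNA1, PLXND1, SEMA3C and SEMA6D kept their knockdown calls under every alternative that gave them a value. The inhibitor count across both siRNAs, 6 as reported, was 3 by the majority of probe sets, 3 with _x_at and _s_at probe sets left out, 3 without the intensity trend and 2 in the additive model without both arrays with conflicting labels. The count in siCtrl cells, 6 as reported, was 1 with no filter, 3 with the stricter filter, 3 for the mean of probe sets, 2 without _x_at and _s_at probe sets, 0 without the intensity trend (35 genes called in all) and 3 by the majority of probe sets. The count in siCYLD cells, 7 as reported, was 4 with no filter, 3 for the mean of probe sets, 4 without the intensity trend and 3 by the majority of probe sets. The cause was not tested. Over all genes, 2757 knockdown calls became 1219 without the trend, 1668 by the majority, 1052 without both conflicting arrays and 0 by source name. The 2586 inhibitor calls across both siRNAs became 1087, 1584 and 1325 under the same first 3 settings, and 1232 to 1706 without siCYLD replicate 1, siCYLD replicate 2, siCtrl replicate 1 or the siCYLD inhibitor array. The 1211 calls in siCtrl cells became 478 with no filter and 609 by the majority, and the 2900 in siCYLD cells became 1819 with no filter, 1055 without the trend and 1672 by the majority. The 216 interaction calls became 33 with no filter, 95 for the mean, 134 without _x_at and _s_at probe sets, 0 without the trend, 94 by the majority, and 455 and 361 without siCYLD replicate 1 and 2. Leaving out 1 array at a time gave 10 to 12 for the knockdown, 3 to 7 for the inhibitor across both siRNAs, 3 to 6 in siCtrl cells, 5 to 7 in siCYLD cells and 0 for the interaction, with the expression filter kept as for all arrays. With replicate number as a block on the untreated arrays, 13 members were called. Deviations of the replicate 1 arrays from their group means correlated at 0.0447, and with only 2 pairs the numbers were not shown to pair the arrays. Within each siRNA and for the interaction, leaving out both arrays with conflicting labels left no residual degrees of freedom and no test. Dim signals limit EFNA2, SEMA6D, SEMA3A, EPHA8, EPHA4 and CDK5, and the arrays limit all values by their number.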
